A study of Mus musculus with 18 samples.

Results

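The 42 genes described here are genes of the germ line: 14 of the piRNA pathway and the germ granule, 6 of the synaptonemal complex, 12 other genes of meiosis, and 10 regulators and other genes of germ cells. They were chosen by symbol, as listed genes with a probe set annotated to that gene alone, and all 42 were measured, among 19937 genes on the arrays. Earlier results of these data were known at that choice. Shares of the 42 set beside shares of all genes are therefore description and no test. The study profiled RNA on 18 mouse arrays, with 3 arrays for each of 6 groups. The first group was primary fibroblasts from embryos of CD1 mice (MEFs). Such fibroblasts had been reprogrammed with the retroviruses pMX-Oct4, pMX-Klf4 and pMX-Sox2, which gave 3 induced pluripotent stem (iPS) lines, so every iPS group carries these viruses. EOS3F-24 was labelled a partial iPS line, and EOS3F-28 and EOS3F-29 were labelled full iPS lines. A further group was EOS3F-24 converted in 2i, which was a MEK inhibitor at 2 µM with a GSK inhibitor at 12 µM in medium with LIF. The last group was the J1 line of embryonic stem (ES) cells, which had not been reprogrammed. Each iPS line is 1 clone, so a difference between lines cannot be told apart from a difference between clones. LIF and arrested feeder cells were used for J1 and for the iPS clones but not for the MEFs, and puromycin at 1 µg/mL was used for the iPS lines. The labels do not say whether puromycin was kept during conversion in 2i. Culture conditions cannot be told apart from cell type in any comparison with MEFs, nor puromycin from cell type between iPS lines and J1, and an unstated change of puromycin cannot be told apart from 2i. The sources used here give no age, no sex and no strain for J1. Nothing in the labels says that the 3 arrays of a group came from separate cultures, so every p-value measures the spread between arrays, which may be technical.

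Germ cells silence transposons with piRNAs, small RNAs that guide Piwi proteins to transposon transcripts and to transposon DNA. The proteins that make and use piRNAs gather in germ granules, where Tudor proteins bind methylated Piwi proteins. At meiosis, cohesins and axis proteins organise the paired chromosomes, recombinases repair programmed DNA breaks, and the synaptonemal complex zips homologues together. Most of these genes are silent in somatic cells, many of them under promoter DNA methylation, and a number of them are transcribed in pluripotent stem cells, which do not enter meiosis. E-box and E2F-type sites in such promoters are known to recruit a Polycomb complex that holds Mga, Max, L3mbtl2 and E2f6.

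Values are log2 array values made by RMA, a method that combines background correction, normalisation and probe summary, and differences are given on the log2 scale ± SE. Array medians ran from 3.92 to 4.11, and replicate arrays correlated at 0.971 to 0.987 over genes. The MEF arrays had mean values of 8.75 to 9.03 over 13 fibroblast genes and of 3.48 to 3.67 over 10 pluripotency genes. The converted, full iPS and J1 arrays had 7.90 to 9.01 over the pluripotency genes, and EOS3F-24 had 5.18 to 5.80. EOS3F-24 matched neither marker set in full, with Pou5f1 higher than in MEFs by 7.79 ± 0.16, which the arrays cannot divide between the cell's own gene and the Oct4 retrovirus. Fibroblast genes stayed readable in all feeder-grown groups, with array means of 5.97 to 8.01 and 12 of 13 genes above 4. The germline genes were dim. For 18 of the 42 no group mean reached 4, close to the array medians, and RMA compresses differences at such values.

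The promoters of 5 of the genes are shown here because the genes moved with different sizes and hold different motifs. The sequences are from RefSeq (GRCm38.p6), 250 bases up to the transcription start, 5′ to 3′ on the gene's strand, with CACGTG (an E-box) and GCGGGAA (an E2F-type site) in capitals. Ddx4 lies on the minus strand at chr13:112652311-112652560, Hormad1 on the plus strand at chr3:95559427-95559676, and Sycp3 on the plus strand at chr10:88459337-88459586. Sycp1 lies on the minus strand at chr3:102936101-102936350 and Tdrd12 on the minus strand at chr7:35537745-35537994.
Ddx4: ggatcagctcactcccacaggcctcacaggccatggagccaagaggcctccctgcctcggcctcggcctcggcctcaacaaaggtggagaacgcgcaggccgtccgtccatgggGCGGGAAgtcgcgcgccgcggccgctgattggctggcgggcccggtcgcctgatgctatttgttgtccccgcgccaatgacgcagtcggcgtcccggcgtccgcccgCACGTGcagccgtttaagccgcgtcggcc
Hormad1: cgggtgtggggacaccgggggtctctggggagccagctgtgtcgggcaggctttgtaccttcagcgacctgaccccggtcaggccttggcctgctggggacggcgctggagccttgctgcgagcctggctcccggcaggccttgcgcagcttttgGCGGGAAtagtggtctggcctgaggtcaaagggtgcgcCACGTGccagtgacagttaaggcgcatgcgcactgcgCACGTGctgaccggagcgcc
Sycp3: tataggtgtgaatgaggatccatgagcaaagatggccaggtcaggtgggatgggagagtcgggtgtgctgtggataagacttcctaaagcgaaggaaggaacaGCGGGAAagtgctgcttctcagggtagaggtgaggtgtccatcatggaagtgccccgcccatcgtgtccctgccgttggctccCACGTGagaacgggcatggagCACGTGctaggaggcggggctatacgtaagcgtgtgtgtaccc
Sycp1: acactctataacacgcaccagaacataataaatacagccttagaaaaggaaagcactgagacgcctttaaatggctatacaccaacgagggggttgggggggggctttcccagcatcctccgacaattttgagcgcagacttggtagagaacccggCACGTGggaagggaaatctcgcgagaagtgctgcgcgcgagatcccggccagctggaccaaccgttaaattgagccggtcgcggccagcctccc
Tdrd12: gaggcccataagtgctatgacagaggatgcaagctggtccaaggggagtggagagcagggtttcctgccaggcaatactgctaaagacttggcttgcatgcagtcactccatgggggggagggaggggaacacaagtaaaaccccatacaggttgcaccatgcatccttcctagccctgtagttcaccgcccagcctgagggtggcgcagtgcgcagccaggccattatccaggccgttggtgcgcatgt

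In Ddx4 the E2F-type site began 136 bases before the start and the E-box 29 bases before it. Hormad1 held the E2F-type site at 95 and E-boxes at 57 and 20 bases before the start. Sycp3 held them at 147, 64 and 43 bases, and Sycp1 had an E-box alone, at 94. Neither run of letters was found in the 250 bases of Tdrd12, the piRNA gene with the largest difference between full iPS lines and MEFs among the 42. Both motifs were searched on both strands, and they do not overlap each other. Before the count, RefSeq promoters of a single chromosome were left out, as were entries that did not span 250 bases before the start and 50 after it. The promoters kept covered 37 of the 42 genes, and a gene was counted when any of its promoters held the motif. CACGTG was found for 15 of the 37 (40.5%), against 6.90% of all 27025 genes with a promoter kept and 8.10% of the 15613 also tested on the arrays. GCGGGAA was found for 7 (18.9%), against 4.40% of all genes and 6.10% of those tested. Either motif was found for 17 (45.9%), against 10.8% and 13.6%. The 15 E-box genes were Brdt, Ddx4, Hormad1, Mael, Mov10l1, Piwil1, Slc25a31, Stag3, Syce2, Sycp1, Sycp3, Taf7l, Tdrd1, Tdrd9 and Tex12. They included 11 of the 23 genes that were called higher in full iPS lines than in MEFs (47.8%) and 4 of the other 14 (28.6%). Each gene was given the CpG dinucleotide count of its promoter with the most, and the median over genes was 15, against 6 over all genes and 12 over those tested. These shares describe letters in a window and were not tested.

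**Figure D1:**
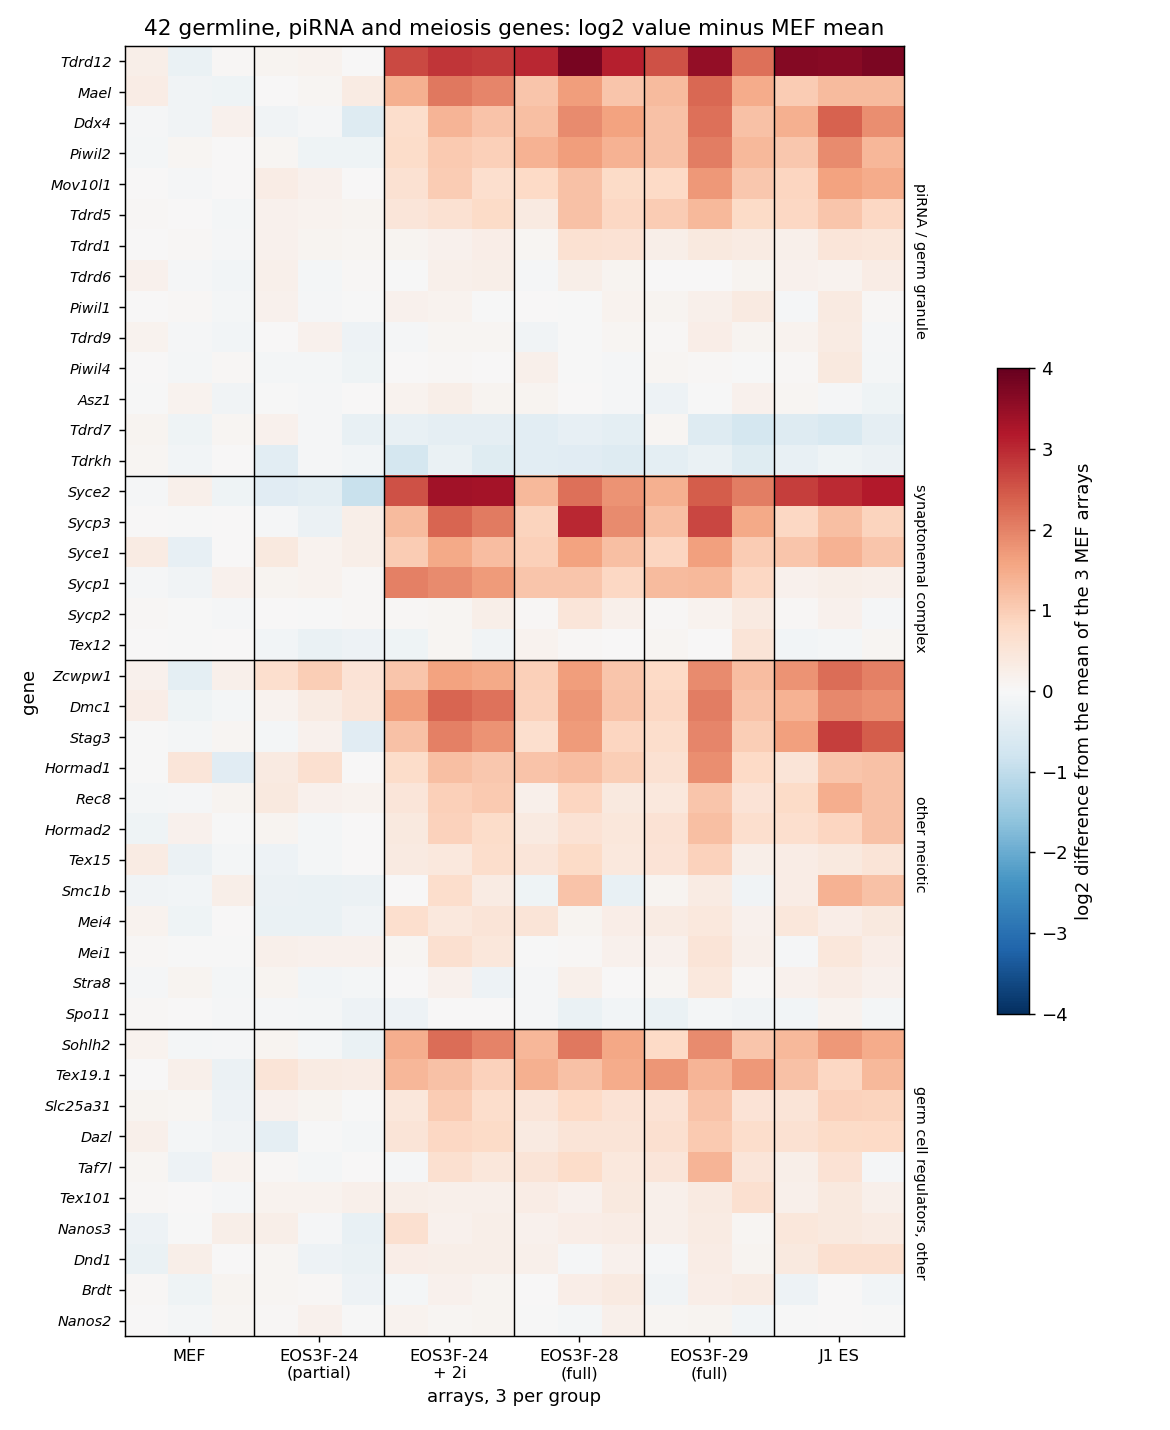
Log2 value of each of the 42 genes on each of the 18 arrays minus that gene's mean over the 3 MEF arrays, with genes in rows by class and arrays in columns by group. The MEF and EOS3F-24 columns are mostly pale, and the converted, EOS3F-28, EOS3F-29 and J1 columns are red for the upper genes of each class; the lower genes of each class stay near 0.

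The germline genes were mostly low in MEFs and in the partial line, and a block of them read higher in every group of pluripotent cells. In 17 of the 42 genes (40.5%), each of the 12 converted, full iPS and J1 arrays read above each of the 6 MEF and EOS3F-24 arrays, which held for 3.54% of all genes. The 17 were Tdrd5, Tdrd12, Piwil2, Mael, Mov10l1 and Ddx4 of the piRNA genes, Sycp1, Sycp3, Syce1 and Syce2 of the synaptonemal complex, Stag3, Hormad2 and Dmc1 of the other meiotic genes, and Dazl, Sohlh2, Tex19.1 and Slc25a31 of the regulators. In Sycp1 the gap was almost closed, since the highest MEF array and the lowest J1 array both read 2.81. Not all of the 17 were high among all genes: in J1 cells they ran from percentile 8.38 for Sycp1 to 95.2 for Syce2. Across the 42 genes, the group with the highest mean was J1 for 15, EOS3F-29 for 9, converted cells for 9, EOS3F-28 for 6, MEFs for 3 and EOS3F-24 for 0. In bulk RNA, a gene read by few cells at a high level and by many cells at a low level cannot be told apart.

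Full iPS lines had 25 of the 42 genes called higher than MEFs and 2 called lower at an adjusted p under 0.05 (limma), against 17.1% of all genes called higher and 17.8% called lower. In this comparison 15 of the 25 differed by at least 2-fold, against 3.09% of all genes. The median difference was 0.58 over the 42 genes and 0.03 over all genes. By class, the genes called higher were 7 of 14 piRNA genes, 4 of 6 synaptonemal genes, 8 of 12 other meiotic genes and 6 of 10 regulators. J1 cells had 23 genes higher than MEFs and 1 lower, against 20.6% and 17.5% of all genes, and 13 higher by at least 2-fold, against 5%. EOS3F-24 had 1 gene higher than MEFs and 0 lower, against 13.7% and 10%, and 3 had an unadjusted p under 0.05. These comparisons share the same 3 MEF arrays. Centring each array on housekeeping genes moved the median of all genes for full iPS lines against MEFs from 0.03 to -0.14, and then 20 of the 42 genes were higher and 2 lower, beside 1776 and 4984 of all genes. With it, J1 against MEFs gave 18 higher and 2 lower, beside 2292 and 4635 of all genes.

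Among the piRNA genes, Tdrd12, a Tudor-domain helicase needed for secondary piRNAs, differed most from MEFs. It read 3.73, 3.24 and 3.55 in MEFs, 3.63, 3.66 and 3.53 in EOS3F-24 and 6.15, 6.35 and 6.31 after 2i. It read 6.53, 7.31 and 6.61 in EOS3F-28, 6.06, 7.02 and 5.71 in EOS3F-29 and 7.18, 7.16 and 7.29 in J1 cells. No array of the first 2 groups came near the other 12, and the highest array was 1 of EOS3F-28. The full iPS mean of 6.54 ± 0.59 (SD, n = 6) was 8.19-fold above the MEF mean of 3.51 ± 0.25 (SD, n = 3), a difference of 3.03 ± 0.21 (limma adjusted p = 1.03e-08). Ordered by mean, J1 (7.21) stood above EOS3F-28 (6.82), converted cells (6.27) and EOS3F-29 (6.26). The J1 arrays lay within the range of EOS3F-28, the EOS3F-29 arrays overlapped those of EOS3F-28 and converted cells, and every EOS3F-28 array lay above every converted array.

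Ddx4, the germ granule RNA helicase known as Vasa, read 3.19, 3.13 and 3.44 in MEFs and 3.10, 3.22 and 2.75 in EOS3F-24. Its arrays read 3.95, 4.63 and 4.40 after 2i, 4.45, 5.16 and 4.88 in EOS3F-28, 4.42, 5.44 and 4.43 in EOS3F-29 and 4.66, 5.62 and 5.13 in J1 cells. The second array was the highest in each of those 4 groups. Ddx4 was higher than in MEFs by 1.54 ± 0.24 in full iPS lines (adjusted p = 6.04e-05) and by 1.88 ± 0.27 in J1 cells. Piwil2, the Piwi protein known as MILI, read 3.60, 3.77 and 3.71 in MEFs, 3.78, 3.54 and 3.51 in EOS3F-24 and 4.44, 4.74 and 4.65 after 2i. In EOS3F-28 it read 5.08, 5.37 and 5.09, in EOS3F-29 4.86, 5.75 and 5.003 and in J1 cells 4.76, 5.57 and 5.01. All 3 converted arrays lay below all full iPS arrays and above all MEF arrays. The difference between full iPS lines and MEFs was 1.50 ± 0.18 (adjusted p = 4.18e-06).

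Mael, or Maelstrom, acts in piRNA-guided transposon silencing. It read 3.22, 2.79 and 2.76 in MEFs, 2.95, 3.002 and 3.26 in EOS3F-24, 4.34, 5.05 and 4.89 after 2i, 4.04, 4.60 and 4.04 in EOS3F-28, 4.20, 5.23 and 4.41 in EOS3F-29 and 3.95, 4.20 and 4.18 in J1 cells. The 2 arrays that exceeded 5 were 1 converted and 1 EOS3F-29 array, and the J1 arrays lay below all 3 converted arrays while both full lines overlapped the converted cells. Over MEFs, full iPS lines gained 1.50 ± 0.20 (adjusted p = 1.81e-05). Mov10l1, a helicase needed to process piRNA precursors, read 3.19, 3.12 and 3.17 in MEFs and 3.47, 3.34 and 3.17 in EOS3F-24. It then read 3.76, 4.18 and 3.82 after 2i, 3.94, 4.33 and 3.93 in EOS3F-28, 3.94, 4.89 and 4.23 in EOS3F-29 and 4.01, 4.76 and 4.64 in J1 cells. Full iPS lines were 2.08-fold above MEFs (adjusted p = 0.000221).

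The Tudor genes did not move together. Tdrd5 was higher in full iPS lines than in MEFs by 0.91 ± 0.15, and Tdrd1, whose protein binds Piwil2, by 0.36 ± 0.11. Tdrd7, also a germ granule gene, was lower by 0.38 ± 0.14 (-0.38), and Tdrkh, which tethers piRNA trimming to mitochondria, by 0.42 ± 0.10 (-0.42). Tdrd7 in EOS3F-29 replicate 1 read 5.43, inside the MEF range, so those arrays overlapped. Tdrd6 and Tdrd9 differed by 0.07 and 0.06 and were not called. The other Piwi genes, Piwil1 and Piwil4, differed by 0.14 and 0.04, and Asz1, a partner on mitochondria, by 0.01. None of these 5 was called in any of the 9 comparisons, and all their group means lay under 4. The Tudor calls at Tdrd1 and Tdrd7 each rested on single arrays. Tdrd1 lost its call in full iPS lines against MEFs without MEF replicate 3 (limma adjusted p = 0.0569). Tdrd7 lost it without any one of EOS3F-28 replicates 1, 2 and 3, EOS3F-29 replicates 2 and 3 and MEF replicates 1 and 3 (0.0517 to 0.153).

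**Figure D2:**
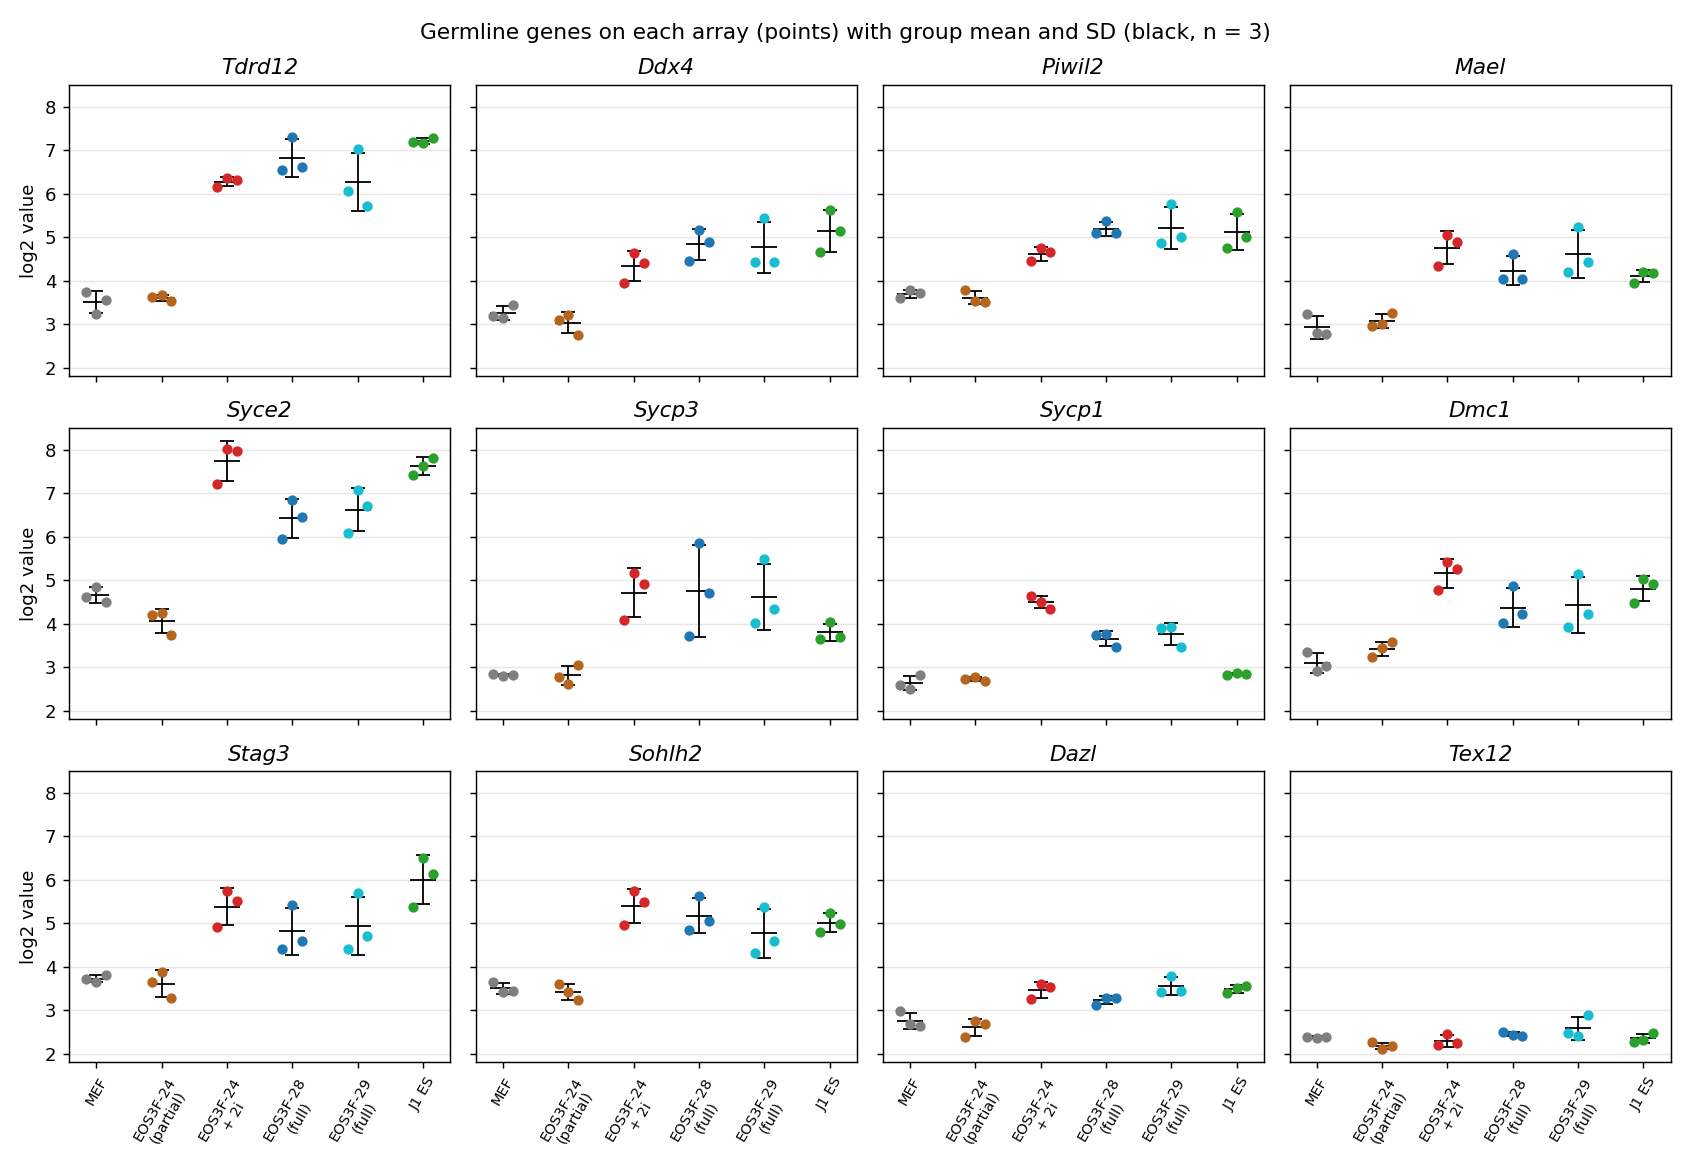
Log2 values of 12 of the genes, with 1 point per array, colours for the 6 groups, and black bars for the mean and SD of 3 arrays. Tdrd12 and Syce2 show the widest gaps between the MEF and EOS3F-24 arrays and the others; Sycp1 is highest in converted cells and near the MEF level in J1 cells, and Tex12 is low in all groups.

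Of the synaptonemal genes, Syce2 encodes a central element protein that joins the zipper along its length. Its arrays read 4.61, 4.85 and 4.49 in MEFs, 4.20, 4.25 and 3.75 in EOS3F-24 and 7.20, 8.02 and 7.97 after 2i. They read 5.95, 6.85 and 6.46 in EOS3F-28, 6.09, 7.08 and 6.70 in EOS3F-29 and 7.41, 7.62 and 7.82 in J1 cells. EOS3F-24 was the lowest group on all 3 arrays, below the MEFs, by -0.58 ± 0.26 (not called, limma adjusted p = 0.123). Converted cells (7.73 ± 0.46, SD, n = 3) and J1 cells (7.62 ± 0.21) overlapped, and both stood above full iPS lines (6.52 ± 0.44, SD, n = 6). Full iPS lines exceeded MEFs by 1.87 ± 0.23 (adjusted p = 5.08e-06) and J1 cells exceeded them by 2.96 ± 0.26. The EOS3F-24 value below MEFs was called after centring on housekeeping genes, at -0.80 (adjusted p = 0.0286).

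Sycp3, of the lateral element, read 2.85, 2.79 and 2.83 in MEFs and 2.78, 2.60 and 3.05 in EOS3F-24. It read 4.09, 5.15 and 4.90 after 2i, 3.72, 5.84 and 4.71 in EOS3F-28, 4.03, 5.48 and 4.35 in EOS3F-29 and 3.66, 4.03 and 3.71 in J1 cells. The spread between replicates was wide, with an SD of 0.83 over the 6 full iPS arrays. The full iPS mean exceeded the MEF mean by 1.86 ± 0.35 (adjusted p = 0.000463), and J1 cells by 0.98 ± 0.41, which was not called (adjusted p = 0.0705). Sycp1, which spans the zipper as its transverse filament, read 2.59, 2.49 and 2.81 in MEFs, 2.73, 2.78 and 2.69 in EOS3F-24 and 4.63, 4.51 and 4.34 after 2i. It read 3.75, 3.75 and 3.47 in EOS3F-28, 3.90, 3.91 and 3.46 in EOS3F-29 and 2.81, 2.87 and 2.84 in J1 cells. The groups fell in 3 steps that did not overlap, with converted cells at the top, the full iPS lines in the middle, and J1, MEFs and EOS3F-24 at the bottom. Full iPS lines exceeded MEFs by 1.08 ± 0.11 (adjusted p = 8.00e-07), while J1 cells differed from MEFs by 0.21 ± 0.13 (adjusted p = 0.218).

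Syce1, of the central element, read 3.77, 3.09 and 3.45 in MEFs, 3.83, 3.59 and 3.67 in EOS3F-24, 4.44, 4.95 and 4.67 after 2i, 4.40, 5.04 and 4.65 in EOS3F-28, 4.30, 5.06 and 4.44 in EOS3F-29 and 4.53, 4.82 and 4.55 in J1 cells. The last 4 groups overlapped and all lay above MEFs, with full iPS lines higher by 1.21 ± 0.18 (adjusted p = 4.17e-05). Sycp2, the partner of Sycp3 in the lateral element, stayed between 2.56 and 3.10 on all 18 arrays, and Tex12, the partner of Syce2, between 2.11 and 2.90. Neither was called against MEFs in full iPS lines (0.22 and 0.14).

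Among the other meiotic genes, Stag3, a cohesin subunit of meiosis, read 3.72, 3.67 and 3.81 in MEFs and 3.65, 3.89 and 3.28 in EOS3F-24. It read 4.91, 5.74 and 5.52 after 2i, 4.41, 5.43 and 4.60 in EOS3F-28, 4.42, 5.69 and 4.71 in EOS3F-29 and 5.38, 6.50 and 6.14 in J1 cells. In each of the last 4 groups the first array was the lowest and the second the highest. Stag3 exceeded the MEF level by 1.15 ± 0.28 in full iPS lines (adjusted p = 0.00403) and by 2.28 ± 0.33 in J1 cells. Rec8, the kleisin that joins Stag3 in meiotic cohesin, read 3.69, 3.71 and 3.87 in MEFs and 4.14, 3.92 and 3.89 in EOS3F-24. It read 4.23, 4.71 and 4.81 after 2i, 3.95, 4.63 and 4.16 in EOS3F-28, 4.19, 4.88 and 4.31 in EOS3F-29 and 4.52, 5.22 and 4.92 in J1 cells, and of these 4 groups EOS3F-28 alone overlapped EOS3F-24. J1 cells exceeded MEFs by 1.13 ± 0.21 (adjusted p = 0.000340). Full iPS lines exceeded them by 0.59 ± 0.18, and without MEF replicate 1 or 2 that call was lost (adjusted p = 0.0561 to 0.0628). Smc1b, the third meiotic cohesin gene, differed by 0.16 in full iPS lines, and by 0.95 ± 0.31 in J1 cells.

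Dmc1, the recombinase of meiosis, read 3.36, 2.91 and 3.02 in MEFs, 3.24, 3.43 and 3.58 in EOS3F-24, 4.79, 5.43 and 5.26 after 2i, 4.02, 4.87 and 4.23 in EOS3F-28, 3.92, 5.14 and 4.23 in EOS3F-29 and 4.48, 5.03 and 4.91 in J1 cells. All 12 arrays from converted cells to J1 lay above the other 6, and full iPS lines exceeded MEFs by 1.30 ± 0.23 (adjusted p = 0.000267). Zcwpw1, a reader of the histone marks that Prdm9 leaves at recombination sites, read 4.03, 3.47 and 4.04 in MEFs and 4.53, 4.84 and 4.38 in EOS3F-24. It read 4.97, 5.45 and 5.36 after 2i, 4.81, 5.52 and 4.95 in EOS3F-28, 4.65, 5.75 and 5.09 in EOS3F-29 and 5.65, 6.09 and 5.87 in J1 cells. Its EOS3F-24 arrays all lay above the MEF arrays, by 0.74 ± 0.25 (adjusted p = 0.0375), the sole call among the 42 genes in that comparison. That call was lost without EOS3F-24 replicate 1 or 2 or MEF replicate 2 (0.0654 to 0.163), after cyclic loess (0.0707) and after housekeeping centring (0.142). Against MEFs, full iPS lines were higher by 1.28 ± 0.21 and J1 cells by 2.02 ± 0.25.

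Hormad1, an axis protein that monitors pairing, read 3.44, 3.94 and 2.99 in MEFs and 3.82, 4.10 and 3.47 in EOS3F-24. It read 4.18, 4.66 and 4.53 after 2i, 4.60, 4.70 and 4.46 in EOS3F-28, 4.07, 5.31 and 4.25 in EOS3F-29 and 3.99, 4.56 and 4.64 in J1 cells, and the MEF arrays were spread widely. Hormad1 was higher in full iPS lines than in MEFs by 1.11 ± 0.25 (adjusted p = 0.00171), and a second probe set of Hormad1 gave 0.81 ± 0.20 (adjusted p over all probe sets = 0.00678). For J1 cells against MEFs the second probe set gave 0.56 ± 0.23 and was not called (limma adjusted p = 0.0865), while the first was called. For EOS3F-24 against MEFs it gave -0.18 ± 0.23, against 0.34 ± 0.28 with the first, and neither was called. In full iPS lines Hormad2 was higher than in MEFs by 0.64 ± 0.15 and Tex15, which acts in recombination and transposon silencing, by 0.57 ± 0.15. Mei4, needed for meiotic DNA breaks, was higher by 0.30 ± 0.10, a call lost without MEF replicate 2 or 3, EOS3F-28 replicate 1 or EOS3F-29 replicate 2 (adjusted p = 0.0520 to 0.146). Spo11, the enzyme that makes those breaks, differed by -0.15, Mei1 by 0.18, and Stra8, which starts meiosis under retinoic acid, by 0.11. None of these last 3 was called in any of the 9 comparisons.

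Of the regulators, Sohlh2, a transcription factor of early germ cell differentiation, read 3.65, 3.43 and 3.45 in MEFs and 3.62, 3.43 and 3.23 in EOS3F-24. Its arrays read 4.97, 5.75 and 5.49 after 2i, 4.85, 5.63 and 5.07 in EOS3F-28, 4.32, 5.39 and 4.60 in EOS3F-29 and 4.81, 5.24 and 4.996 in J1 cells. The MEF and EOS3F-24 arrays stayed below all others, and full iPS lines exceeded MEFs by 1.47 ± 0.21 (adjusted p = 3.60e-05). Tex19.1, a mammalian gene that restrains retrotransposons, read 3.48, 3.65 and 3.22 in MEFs, 3.97, 3.79 and 3.74 in EOS3F-24 and 4.77, 4.62 and 4.39 after 2i. It read 4.86, 4.62 and 4.95 in EOS3F-28, 5.20, 4.80 and 5.20 in EOS3F-29 and 4.61, 4.28 and 4.75 in J1 cells. Unlike Stag3, its second array was the lowest of the 3 in EOS3F-28, EOS3F-29 and J1. Full iPS lines exceeded MEFs by 1.49 ± 0.13 (adjusted p = 1.71e-07).

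Dazl, an RNA-binding protein that licenses germ cells for meiosis, was higher in full iPS lines than in MEFs by 0.63 ± 0.12. Slc25a31, the ADP/ATP carrier of testis, was higher by 0.69 ± 0.15, Taf7l, a germ cell TFIID subunit, by 0.67 ± 0.19, and Tex101, a germ cell surface protein, by 0.34 ± 0.09. Without MEF replicate 2 Taf7l was no longer called (adjusted p = 0.0618). Dnd1 and Nanos3, needed by primordial germ cells, differed by 0.11 and 0.22 and were not called in full iPS lines, while J1 cells exceeded MEFs by 0.56 ± 0.13 and 0.39 ± 0.14. Nanos2, of male germ cells, and Brdt, the testis bromodomain protein, differed by 0.03 and 0.18. For J1 against MEFs, 18 of 24 calls held without any one array. The calls lost were Tdrd1 (adjusted p = 0.0622 to 0.0771, without J1 replicate 2 or 3 or MEF replicate 3), Tdrd7 (0.0681 to 0.0798, without J1 replicate 2 or MEF replicate 1 or 3), Hormad1 (0.0535 to 0.0854, without J1 replicate 2 or 3 or MEF replicate 3) and Mei4 (0.0531 to 0.0742, without J1 replicate 1 or MEF replicate 2). The others were Smc1b (0.0608 to 0.111, without J1 replicate 2 or 3 or MEF replicate 1 or 2) and Nanos3 (0.0630 to 0.174, without J1 replicate 1, 2 or 3 or MEF replicate 1 or 2).

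The partial line read lower than the full lines in many of the 42 genes. For the 17 genes picked above by their array values, this was fixed by that choice, which used the same arrays. Of the 42 genes, 22 were lower in EOS3F-24 than in full iPS lines and 0 were higher (27 had an unadjusted p under 0.05, limma), against 5.78% of all genes called lower and 12.8% called higher, and 9 were lower by at least 2-fold, against 1.28%. The median difference was -0.53 over the 42 genes and 0.01 over all genes. The 22 were 6 of the piRNA genes, 5 of the synaptonemal genes, 6 of the other meiotic genes and 5 of the regulators. Tdrd12 fell short by 2.94 ± 0.21 (-2.94, 7.65-fold), Syce2 by 5.48-fold, Sycp3 by 3.67-fold, Ddx4 by 3.41-fold, Piwil2 by 3.004-fold, Sohlh2 by 2.93-fold, Mael by 2.54-fold, Stag3 by 2.41-fold and Tex19.1 by 2.15-fold. Their adjusted p-values ran from 2.74e-08 for Tdrd12 to 0.00382 for Stag3. Zcwpw1 (-0.54, adjusted p = 0.0908) and Rec8 (-0.37, 0.192) were not called. Tex12, at -0.34, was called here though all its values lay under 3. Tex12 lost the call after cyclic loess (0.121) and without EOS3F-24 replicate 2 or 3 (0.0776 to 0.124), and Taf7l lost it without either of the same arrays (0.0549 to 0.0805). Hormad1 lost it without EOS3F-24 replicate 1 or 3, EOS3F-28 replicate 1 or 2 or EOS3F-29 replicate 2 (0.0564 to 0.187), while its second probe set gave -0.98 ± 0.20 (adjusted p over all probe sets = 0.00373).

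After conversion in 2i many of the 42 genes were higher in EOS3F-24 than before. For the 17 genes picked above by their array values, this rise was fixed by that choice, which used the same arrays. Of the 42 genes, 20 were higher after 2i than before and 0 were lower (25 had an unadjusted p under 0.05, limma), against 9.36% of all genes called higher and 13% called lower, and 10 were higher by at least 2-fold, against 2.16%. The median difference was 0.58 over the 42 genes and 0.00 over all genes. The EOS3F-24 arrays are those of the comparison with full iPS lines. Counts by class were 5 of 14 piRNA genes, 4 of 6 synaptonemal genes, 6 of 12 other meiotic genes and 5 of 10 regulators. Syce2 rose by 3.66 ± 0.26 (12.7-fold, limma adjusted p = 1.68e-08) and Tdrd12 by 2.66 ± 0.25 (6.34-fold, 4.15e-07). Sohlh2 rose by 1.98, Sycp3 by 1.91, Stag3 by 1.78, Sycp1 by 1.76, Dmc1 by 1.74 and Mael by 1.69, while Ddx4 rose by 1.30 and Piwil2 by 1.00. The piRNA helicase Mov10l1 (0.59, adjusted p = 0.0565), Zcwpw1 (0.67, 0.0598) and Hormad1 (0.66, 0.114) were not called in this model. With equal replicate numbers paired, they were called at 0.0133, 0.0192 and 0.0215, and the count became 23. Tdrkh and Tdrd7 went the other way, at -0.30 and -0.28, without a call, though housekeeping centring called Tdrkh lower (-0.47, adjusted p = 0.0121).

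Of the 20 calls, 6 are less firm. Dnd1 (0.0964 to 0.161) was lost without converted replicate 1, 2 or 3 or EOS3F-24 replicate 2 or 3. Rec8 (0.0591 to 0.193) and Tdrd5 (0.0868 to 0.161) were lost without converted replicate 2 or 3 or any EOS3F-24 array. Hormad2 (0.0557) and Slc25a31 (0.0826) were lost without converted replicate 2, and Tex15 (0.0660 to 0.0921) without converted replicate 3 or EOS3F-24 replicate 1. The other 14 calls held without any one array.

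**Figure D3:**
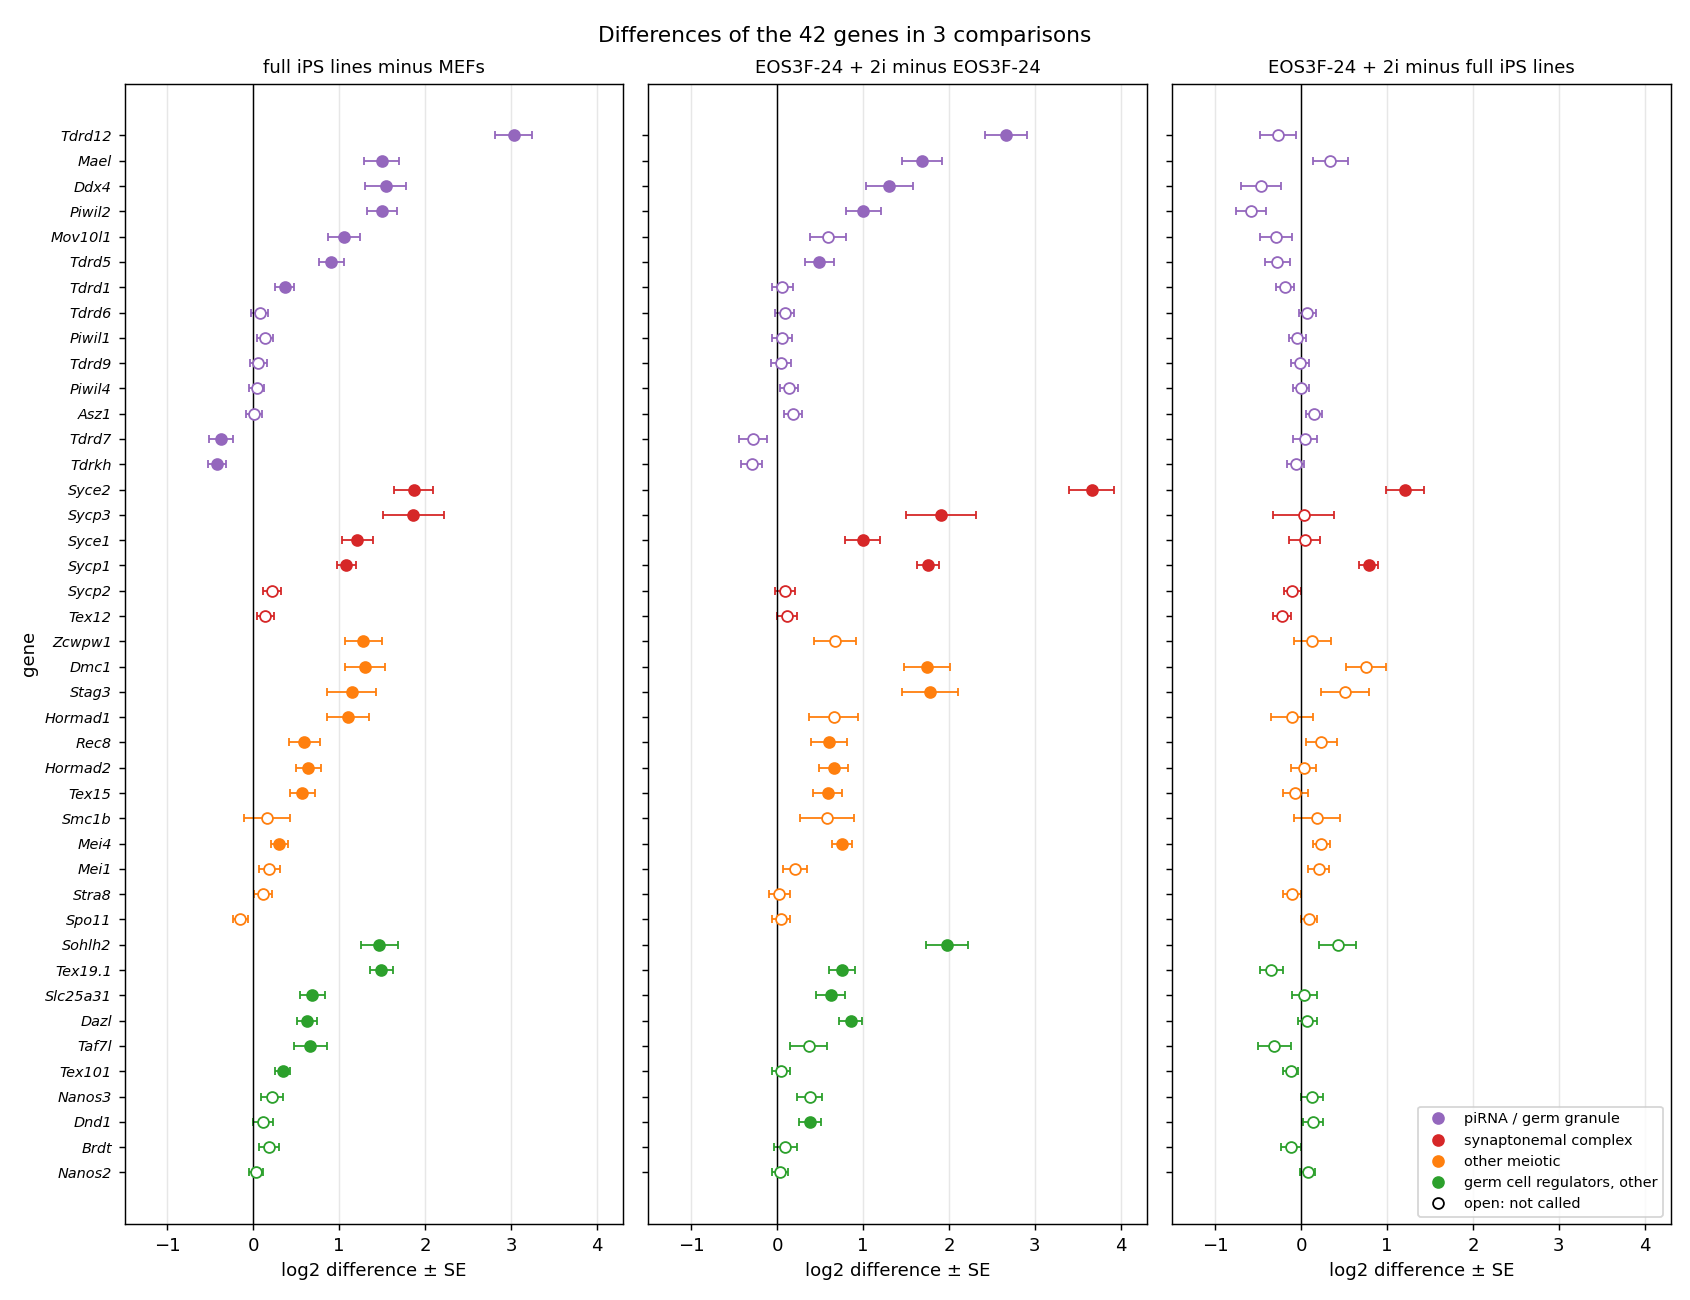
Log2 differences ± SE of the 42 genes for full iPS lines minus MEFs, converted minus partial EOS3F-24, and converted EOS3F-24 minus full iPS lines, coloured by class, with open points for genes not called at an adjusted p under 0.05. The third panel centres on 0, with Syce2 and Sycp1 as its filled points.

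After conversion the median difference of the genes from the full iPS lines was 0.03. Single genes ran from -0.58 to 1.21, with 23 above 0 and 19 below, and 2 synaptonemal genes were called higher. Syce2 was higher in converted cells than in full iPS lines by 1.21 ± 0.23 (2.31-fold, adjusted p = 0.00420) and Sycp1 by 0.79 ± 0.11 (1.72-fold, 0.000448). These 2 of the 42 genes (4.76%) are near the 3.96% of all genes called higher. None was called lower, against 1.20% of all genes. At an unadjusted p under 0.05 there were 7, among them Piwil2 at -0.58 ± 0.18 (adjusted p = 0.0695) and Dmc1 at 0.76 ± 0.23 (0.0727). Housekeeping centring added calls of lower values for Piwil2 (-0.80), Tex19.1 (-0.56), Tdrd5 (-0.49) and Tex12 (-0.43). The split became 2 higher and 4 lower, beside 310 and 2112 of all 19937 genes. That centring moved the median of all genes in this comparison to -0.22. Of the genes not called, Tdrd12 differed by -0.27 ± 0.21, Sycp3 by 0.03 ± 0.35 and Ddx4 by -0.47 ± 0.24. Both calls held without any one array and with either full line alone.

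Converted cells and full iPS lines were each set against the same 3 J1 arrays, and Sycp1 was called higher in each. Converted cells exceeded J1 by 1.66 ± 0.13 in Sycp1 (3.15-fold, adjusted p = 1.57e-06), the 1 gene called higher, and 0 were lower, against 1.06% and 0.652% of all genes, and 9 had an unadjusted p under 0.05. With equal replicate numbers paired, Tdrd12 (-0.94, adjusted p = 0.0288) and Ddx4 (-0.81, 0.0289) were also called, as lower. Full iPS lines had 1 gene higher than J1 and 3 lower, against 1.29% and 3.47%. Sycp1 was higher by 0.87 ± 0.11 (adjusted p = 0.000175), and Syce2 (-1.09, 0.00870), Stag3 (-1.13, 0.0285) and Dnd1 (-0.45, 0.0319) were lower. The Syce2 call was lost without J1 replicate 3 (0.0799). The Stag3 call was lost without J1 replicate 2 or 3, EOS3F-28 replicate 1 or 3 or EOS3F-29 replicate 1 or 3 (0.0560 to 0.164). The Dnd1 call was lost without J1 replicate 2 or 3, EOS3F-28 replicate 2 or 3 or EOS3F-29 replicate 1 (0.0503 to 0.177). The count itself ran from 1, without J1 replicate 3, to 8, without EOS3F-29 replicate 2, with 7 without EOS3F-28 replicate 2. Between the full lines 0 of the 42 genes were called, against 0.301% of all genes higher in EOS3F-28 and 0.231% lower, and 2 had an unadjusted p under 0.05, Dazl (-0.32) and Tdrd12 (0.55).

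**Figure D4:**
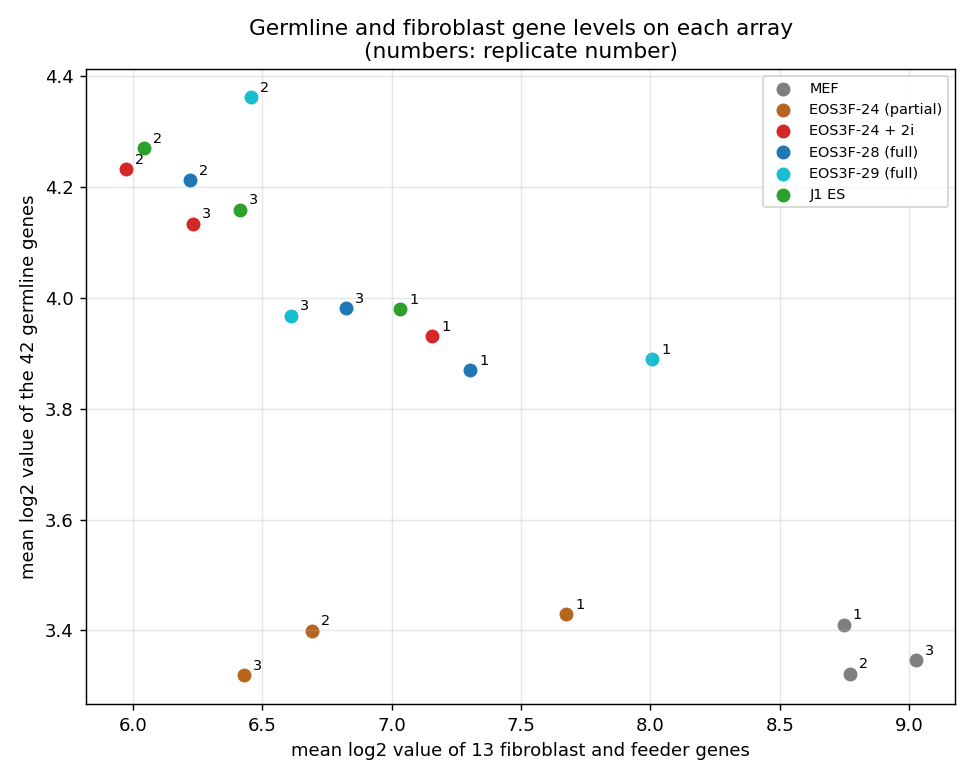
Mean log2 value of the 42 germline genes (vertical) against the mean of 13 fibroblast genes (horizontal) on each array, coloured by group and numbered by replicate. Within the converted, EOS3F-28, EOS3F-29 and J1 groups, array 1 lies farthest right and lowest; the MEF and EOS3F-24 arrays lie at 3.32 to 3.43 whatever their fibroblast level.

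Within 4 of the 5 feeder-grown groups, the fibroblast genes ran opposite to the germline genes from array to array. Replicate 1 had their highest fibroblast mean, at 7.16 in converted cells, 7.30 in EOS3F-28, 8.01 in EOS3F-29 and 7.03 in J1 cells. The same arrays had the lowest means over the 42 genes in their groups, at 3.93, 3.87, 3.89 and 3.98. Replicate 2 had the lowest fibroblast means there, at 5.97, 6.22, 6.46 and 6.04, and the highest germline means, at 4.23, 4.21, 4.36 and 4.27. EOS3F-24 did not follow, with germline means of 3.43, 3.40 and 3.32 on arrays with fibroblast means of 7.68, 6.69 and 6.43. Of the 13 fibroblast genes, 0 were called between EOS3F-24 and the full lines (0 at an unadjusted p under 0.05, limma). In EOS3F-24, 8 read higher than in the full lines and 5 lower, with a median difference of 0.09. Between converted and unconverted EOS3F-24, 0 were called (0), but all 13 read lower after conversion, with a median difference of -0.40. With the first arrays of these 5 groups left out, 28 of the 42 genes were called for full iPS lines against MEFs, against 38% of all genes. For EOS3F-24 against full iPS lines 28 were called, 27 lower and 1 higher, against 20.2% of all genes. For converted against unconverted EOS3F-24 21 were called, against 22.1%. Of these calls, 26, 22 and 19 had been made with all arrays. The part of feeder or fibroblast RNA in the spread between replicates and in the differences between groups was not tested.

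Genes of later or other cells of the gonad had low values. Array means over 6 late spermatid genes ran from 3.25 to 3.57, over 7 oocyte genes from 3.14 to 3.51 and over 6 genes of Sertoli and Leydig cells from 3.69 to 3.98 in all 6 groups. Of these 19 genes, Zp3 (0.49 ± 0.12) and Tnp1 (0.27 ± 0.09) were higher in full iPS lines than in MEFs, against 17.1% of all genes. In J1 cells 2 of the 6 Sertoli and Leydig genes and 1 of the 7 oocyte genes were higher than in MEFs, against 20.6% of all genes. On conversion of EOS3F-24, Zp3 rose by 0.79 ± 0.14 and the Leydig cell gene Cyp17a1 by 0.28 ± 0.09, against 9.36% of all genes, and 0 of the 19 genes were called between EOS3F-24 and MEFs (1 at an unadjusted p under 0.05, limma). Germline genes outside the 42 were split as well. Of 15 other piRNA and germ granule genes, 7 were higher in full iPS lines than in MEFs, led by the piRNA trimmer Pnldc1 (1.71 ± 0.13) and the Tudor gene Rnf17 (1.58 ± 0.23), and 1, Tdrd3, was lower (-0.47 ± 0.11). Of 24 other meiosis genes, 10 were higher and 0 lower, led by Ccnb1ip1 (3.24 ± 0.15), a regulator of crossovers, and Hsf2bp (2.47 ± 0.16), which brings Brca2 to meiotic breaks. Ccnb1ip1 was also higher in EOS3F-24 than in MEFs, by 4.31 ± 0.17, and it fell by 0.74 ± 0.17 on conversion. Hsf2bp rose by 3.52 ± 0.18 on conversion and then stood 1.25 ± 0.16 above full iPS lines (adjusted p = 0.000205). In that last comparison, 0 of the 15 piRNA genes were called, with 0 at an unadjusted p under 0.05.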

How the data were processed

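The deposited table holds 1 log2 value for each probe set on each of 18 arrays, which the authors computed by RMA, per the submitters' processing notes. RNA was extracted with an RNeasy kit and labelled by a whole-transcript method, per the labels' protocols. The sources used here give neither the RMA version nor its probe annotation. RMA equalises array distributions and so removes any shift that most genes share. Of 34760 probe sets, the platform annotation named 1 gene for 21640, several for 1321 and none for 11799, and the probe set with the highest mean stood for each of 19937 genes.

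Groups and replicate numbers came from sample titles. limma 3.58.1 in R 4.3.3 (lmFit, eBayes) fitted 1 mean per group to all arrays, and 9 contrasts were called at a Benjamini-Hochberg adjusted p under 0.05 over all genes. The model was also run on simulated data with independent noise on each array. Shifts shared by arrays of equal replicate number were left out there, so that run is no support for the calls. The number of arrays, 3 a group, limits the precision, as does low signal. The 42 genes, the lists and the rules were chosen with earlier results of these data known. Genes given array by array are those called with at least a 2-fold difference in full iPS lines or J1 cells against MEFs, EOS3F-24 or converted cells against full iPS lines, converted against unconverted EOS3F-24, or EOS3F-28 against EOS3F-29; of the other lists, the 2 largest called rises and falls may be named. Fkbp6 and 6 of the 30 other meiosis genes listed had no probe set of their own.

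Equal replicate numbers paired the arrays (every correlation of deviations above 0.1) for converted against unconverted EOS3F-24 (0.383, 0.140 and 0.122), EOS3F-28 against EOS3F-29 (0.542, 0.639 and 0.149) and J1 against converted cells (0.563, 0.454 and 0.150). That pairing comes from the values, not the labels, and entered as a replicate block only. Alternatives changed the normalisation (cyclic loess, housekeeping centring), the filter on dim genes (mean log2 of at least 4), the probe set rule, the features tested, the arrays in the fit, the block, the full line used, the fold threshold and single arrays.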

Additional observations from a re-analysis of the deposited data

How the results depend on the processing

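No difference of the 42 genes changed sign while called under any alternative. Beside the leave-one-out settings, 3323 gene values kept their side of the threshold, 108 lost the call and 55 gained it. With a fold of at least 2 required, counts of called genes, main value first, went from 27 to 15 for full iPS lines against MEFs, 24 to 13 for J1 against MEFs, 22 to 9 for EOS3F-24 against full iPS lines, 20 to 10 for converted against unconverted EOS3F-24, 2 to 1 for converted against full iPS lines, 4 to 2 for full iPS lines against J1 and 1 to 0 for EOS3F-24 against MEFs. Leaving out genes with a mean over all arrays under 4 kept 14 of the 42 in the test. Calls became 13, 14, 10, 12 and 1 for the first 5 of these, against 52.7%, 56.9%, 28.8%, 35.8% and 9.21% of all genes kept. For converted against J1 they became 0, against 2.71%. A gene can pass this filter through the groups where it is high, so these counts are no support for the calls. For EOS3F-24 against MEFs, calls were 0 after cyclic loess, 3 after housekeeping centring (Tdrkh, Syce2 and Mei4, all lower, and Zcwpw1 no longer called), 0 with all probe sets tested, 2 with the replicate block, 2 with the compared arrays alone and 2 without the first arrays of the feeder-grown groups, an alternative chosen after seeing the data. For converted against J1 cells they were 2 after cyclic loess, 3 after housekeeping centring, 3 with the replicate block and 2 with the compared arrays alone. For converted against full iPS lines they were 6 after housekeeping centring and 4 with the block, which added Piwil2 and Dmc1. For full iPS lines against J1 they were 2 with all probe sets tested, 2 with the compared arrays alone, 1 with EOS3F-29 alone for the full lines and 9 with the block. Equal numbers did not pair the arrays there (0.613, 0.483 and -0.114). Over all genes, the block moved calls from 949 to 1596 for full iPS lines against J1, 1029 to 1572 for converted against full iPS lines and 342 to 543 for converted against J1, and housekeeping centring moved the last 2 to 2422 and 880. The cause of these shifts was not tested.

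Leaving out 1 array at a time gave 24 to 27 calls for full iPS lines against MEFs, 19 to 22 for J1 against MEFs, 19 to 24 for EOS3F-24 against full iPS lines, 16 to 20 for conversion, 2 to 3 for converted against full iPS lines, 1 for converted against J1, 1 to 8 for full iPS lines against J1, 0 for EOS3F-28 against EOS3F-29 and 0 to 1 for EOS3F-24 against MEFs. Low signal limits the genes whose values lay near the array medians. Some small differences there were called, but others can be missed, and a difference not called is not shown to be absent.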

Other observations

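Genes of primordial germ cells and regulators that hold germline genes silent were listed beside the 42. Of 14 primordial germ cell genes, 9 were higher in full iPS lines than in MEFs and 0 lower, against 17.1% and 17.8% of all genes. They were led by Zfp42 (3.33 ± 0.19), which is also a pluripotency marker, and Sall4 (3.18 ± 0.09). EOS3F-24 had 4 of the 14 higher than MEFs, against 13.7% of all genes. The largest was Tfap2c (2.34 ± 0.20), a transcription factor of germ cell and trophoblast fate. After conversion in 2i, 8 were higher and 0 lower than before, against 9.36% and 13% of all genes. The largest rises were those of Zfp42 (4.40 ± 0.22) and Lin28a (2.43 ± 0.16).

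Of 23 genes of germline repression, 13 were higher in full iPS lines than in MEFs, against 17.1% of all genes. The 1 that was lower, against 17.8% of all genes, was E2f6 (-0.59 ± 0.12). The largest differences were those of Dnmt3l (5.01 ± 0.16), a cofactor of the de novo DNA methyltransferases with no catalytic activity of its own, and of Dnmt3b (3.17 ± 0.14), one of those enzymes. EOS3F-24 lay below full iPS lines in 10 of the 23, with Dnmt3l at -4.39 ± 0.16, and above them in 3, led by E2f6 (0.48 ± 0.12) and Max (0.41 ± 0.10). After conversion 9 were higher than before, led by Dnmt3l (4.25 ± 0.18) and Dnmt3b (2.16 ± 0.16), against 9.36% of all genes. E2f6 was lower (-0.40 ± 0.13), against 13% of all genes. After conversion Dnmt3b stayed below its full iPS level by 0.67 ± 0.14 (adjusted p = 0.00817).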
